A study of Mus musculus with 9 samples.

Results

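The genes described here carry out the oxidation of fatty acids in mitochondria and the neighbouring steps of ketone body and acyl-CoA metabolism. They were taken by gene symbol from a list of 32, and all 32 were found, each as 1 row, among the 56748 genes of the deposited count table. Poly(A) RNA was sequenced from whole liver of male C57BL/6J mice aged 28 weeks, fed high-fat chow for 20 weeks from the age of 8 weeks. In the last 4 weeks 5 of the mice were injected daily with formoterol at 1 mg/kg into the peritoneum and 4 with the vehicle, DMSO. Formoterol is a long-acting agonist of beta-adrenergic receptors, which signal through cyclic AMP. All mice in the comparison ate the high-fat diet, so the comparison shows the drug's difference on that diet only. The 9 libraries held between 12336665 and 20339665 counts. Group membership was read from the suffix of the column names, HF for formoterol and HD for vehicle, and every direction below rests on that reading. The codes in those names, from M46 to M60, name the libraries below. Each library was taken as 1 mouse; the labels number the samples without naming animals, so the spread behind each p-value is that between libraries and could be technical.

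Long-chain fatty acids are activated to acyl-CoA thioesters, pass the mitochondrial membranes as carnitine esters and are then shortened by repeated turns of a spiral of reactions. In each turn an acyl-CoA dehydrogenase matched to the chain length removes hydrogen, a hydratase adds water, a hydroxyacyl-CoA dehydrogenase oxidizes again and a thiolase releases acetyl-CoA. Electrons from the dehydrogenases reach the respiratory chain through the electron transfer flavoprotein. In liver much of the acetyl-CoA leaves as ketone bodies, and many genes of the pathway are known targets of the fatty acid receptor PPAR alpha, most active in fasting.

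Upstream sequence was examined for the members, of which 16 had a negative and 16 a positive log2 fold change. RefSeq windows of the build GRCm38.p6, which is not the build of the counts, were found for 27 of the 32 members, and the 250 bases before each start site were searched on both strands. The windows shown are those of Cpt1a and Acadvl, with lower values after formoterol, of Acsm1, Acadsb and Etfa, with higher values, and of Hadhb, whose window is also the upstream side of the divergent gene Hadha. They lie at chr19:3323051-3323300 (Cpt1a, plus strand), chr11:70015429-70015678 (Acadvl, minus), chr5:30155003-30155252 (Hadhb, plus), chr7:119617562-119617811 (Acsm1, plus), chr7:131410351-131410600 (Acadsb, plus) and chr9:55512244-55512493 (Etfa, minus). Capitals mark the hexamer AGGTCA of nuclear receptors in Cpt1a, Acadvl and Acsm1, the GC box GGGCGG in Hadhb and the short cyclic AMP element TGACG in Acadsb and Etfa, each on either strand. All windows shown hold the motif marked in them, so they do not show how often it occurs. GC boxes in Cpt1a and Acadsb are not marked. Etfdh and Acot2, which hold TGACG and had negative log2 fold changes, are not shown.
Cpt1a upstream window: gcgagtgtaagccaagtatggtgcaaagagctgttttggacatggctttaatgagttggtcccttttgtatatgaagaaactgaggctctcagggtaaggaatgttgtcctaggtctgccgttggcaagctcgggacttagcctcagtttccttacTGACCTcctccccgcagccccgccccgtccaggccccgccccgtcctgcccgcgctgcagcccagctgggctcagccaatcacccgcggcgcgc
Acadvl upstream window: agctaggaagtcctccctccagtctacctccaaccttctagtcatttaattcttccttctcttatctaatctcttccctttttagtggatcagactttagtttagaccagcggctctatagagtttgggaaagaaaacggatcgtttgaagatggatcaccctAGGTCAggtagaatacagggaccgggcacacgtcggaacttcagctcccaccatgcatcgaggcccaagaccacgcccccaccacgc
Hadhb upstream window: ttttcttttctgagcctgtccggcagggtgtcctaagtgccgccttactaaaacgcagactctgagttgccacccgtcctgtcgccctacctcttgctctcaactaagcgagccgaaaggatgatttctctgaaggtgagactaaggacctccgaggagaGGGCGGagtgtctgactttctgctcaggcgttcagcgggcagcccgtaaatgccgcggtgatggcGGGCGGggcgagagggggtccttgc
Acsm1 upstream window: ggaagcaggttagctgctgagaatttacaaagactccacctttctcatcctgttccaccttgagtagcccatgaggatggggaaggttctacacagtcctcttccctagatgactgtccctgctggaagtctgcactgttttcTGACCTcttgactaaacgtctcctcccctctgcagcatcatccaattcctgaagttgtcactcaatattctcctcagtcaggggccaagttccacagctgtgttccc
Acadsb upstream window: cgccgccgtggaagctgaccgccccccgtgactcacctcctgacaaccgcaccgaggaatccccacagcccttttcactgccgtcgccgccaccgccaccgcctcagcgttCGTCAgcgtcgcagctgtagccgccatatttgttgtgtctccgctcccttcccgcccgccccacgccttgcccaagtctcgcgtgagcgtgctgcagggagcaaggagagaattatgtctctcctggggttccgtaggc
Etfa upstream window: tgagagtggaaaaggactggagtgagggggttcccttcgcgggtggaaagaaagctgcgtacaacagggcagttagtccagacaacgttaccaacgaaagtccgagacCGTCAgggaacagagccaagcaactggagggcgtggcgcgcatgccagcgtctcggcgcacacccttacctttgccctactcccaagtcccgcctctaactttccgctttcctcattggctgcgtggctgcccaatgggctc
The hexamer AGGTCA was present in 5 of the 27 members (Cpt1a, Acadvl, Acadm, Echs1 and Acsm1) and in 14% of all 32851 windows. Of these 5, Cpt1a and Acadvl had negative log2 fold changes (−0.41 and −0.78) and Acadm, Echs1 and Acsm1 positive ones (0.11, 0.14 and 0.55). The PPAR element DR1, a direct repeat of that hexamer with any 1 base between the copies, was in 0 of the 27 members and 0.0335% of all windows. The ERR element TCAAGGTCA, which also contains it, was in 0 members and 0.387% of windows. The full cyclic AMP element TGACGTCA was in 0 members and 1.55% of windows. Its short form TGACG was in 6 members (Acadm, Acadsb, Etfa, Etfdh, Acsl4 and Acot2) and 17.8% of windows. Of these 6, Etfdh and Acot2 had negative log2 fold changes (−0.35 and −0.25) and Acadm, Acadsb, Etfa and Acsl4 positive ones (0.11, 0.47, 0.47 and 0.50). GC boxes were in 17 of the 27 members and 32.7% of windows. A match is a description of letters in this window and no evidence of binding. With shares this low over all windows, the 0 counts of DR1, the ERR element and the full cyclic AMP element tell nothing about the members. Sites with other letters or outside the window were not searched.

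Of the 32 members, 16 had a negative log2 fold change (formoterol minus vehicle; 51.3% of all genes tested) and 16 a positive one (48.7%), with a median of −0.02 beside −0.014 over the 13042 genes tested. No member passed the edgeR quasi-likelihood test at a Benjamini-Hochberg adjusted p of 0.05, where 0% of all genes tested passed. The smallest adjusted p of a member was 0.151, for Acadvl. At an unadjusted edgeR p under 0.05 there were 6 members with lower values (Cpt1a, Acadvl, Hadha, Bdh1, Acsm3 and Aldh3a2), a direction in which 5.53% of all genes tested reached that p. There were 5 with higher values (Acadsb, Etfa, Etfb, Acsl4 and Acsm1), beside 9.03% of all genes. With libraries scaled by their totals alone the split was 9 lower and 1 higher, and with upper-quartile factors 9 lower and 4 higher. Scaling by totals moved the median over all genes to −0.16 and that over the members to −0.18. The share of all genes at that p was not counted under these scalings, so the splits have no share beside them. In 5 members every formoterol library lay below every vehicle library (Cpt1a, Acadvl, Hadha, Bdh1 and Aldh3a2), beside 2.38% of all genes tested, and in 0 members every one lay above, beside 2.45%. Other tools differed: DESeq2 called 2 members, Acadvl and Aldh3a2, both lower (0.826% of genes with an adjusted p were called lower and 1.96% higher), and limma-voom called 0 (0% in either direction). With quality weights for each sample, limma-voom called 5 lower and 4 higher (4.46% and 6.07% of all genes). Leaving out formoterol library M49 gave 4 members past the edgeR test, Acadvl and Bdh1 lower and Acadsb and Acsm1 higher, where 2.04% of genes were called lower and 3.47% higher. With any other library left out, 0 members passed it.

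**Figure D1:**
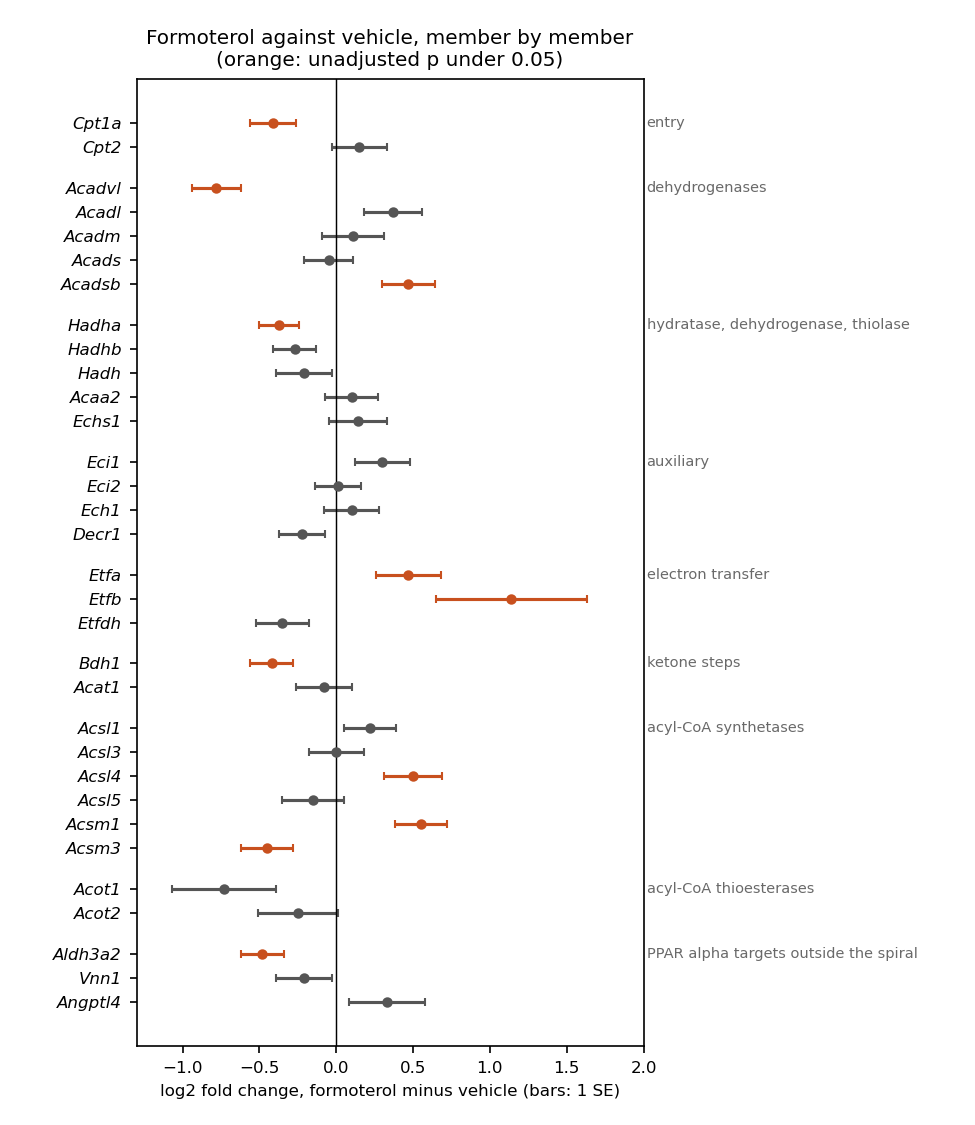
Log2 fold change of each of the 32 members on the x axis (formoterol minus vehicle, bars of 1 SE), ordered by step of the pathway, with members at an unadjusted p under 0.05 in orange. Acadvl lies lowest at −0.78 and Etfb highest at 1.14, with the longest bar.

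Several features of the libraries touch these counts. Short genes ranked higher in the formoterol group (length against log2 fold change gave a Spearman rho of −0.25 over 13042 genes, which are not independent replicates). The 6 members with lower values had a median length of 5277.5 bp and the 5 with higher values 2181 bp. With the length trend of each library removed, 4 members with lower and 3 with higher values kept a p under 0.05. Cpt1a, Hadha, Etfa and Etfb left that set (p from 0.0531 to 0.111). The share of all genes at that p was not counted in this fit, where the median log2 fold change was 0.01 over all genes and −0.06 over the members. The summed level of 8 hepatocyte markers was 99655 to 137654 normalized CPM in the formoterol and 83043 to 97057 in the vehicle libraries, without overlap. Most of that sum was Alb (84967 ± 13018 and 66837 ± 4623 CPM) and Apoa1 (15853 ± 2776 and 8922 ± 1274 CPM), both of secreted proteins. Apoa1 alone of the 8 had groups that did not overlap. Of the 8, 6 had a log2 fold change above 0 and 2 below, and 3 were higher at an unadjusted edgeR p under 0.05. Those 3 were Apoa1 (0.83), Cps1 (0.57) and Serpina1a (0.43). Alb had 0.35, and Ttr, Fabp1, Hnf4a and Tat were between −0.10 and 0.08. Counts of all 8 markers were present in every library. Markers of 6 endothelial genes summed to 24.9 to 77 CPM in the formoterol and 61.7 to 80.7 in the vehicle libraries, and 7 stellate cell and fibroblast markers to 72.4 to 353 and 221 to 385 CPM. In whole liver, fewer cells of a type and less RNA per cell cannot be told apart, and the part of these shifts in the members' values was not tested.

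Per length, members of the spiral differed widely in level. On the RPKM scale (normalized CPM per kilobase of the gene length in the deposited table) the thiolase Acaa2 had the highest vehicle mean at 326 and the thioesterase Acot1 the lowest at 1.21. Both dehydrogenases named for the longest chains were far apart, Acadl at 110.2 and Acadvl at 12.7. How the table's lengths were counted is not given in the sources used here, and a length that adds up several transcripts lowers this scale, for instance in Echs1, listed at 8286 bp.

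**Figure D2:**
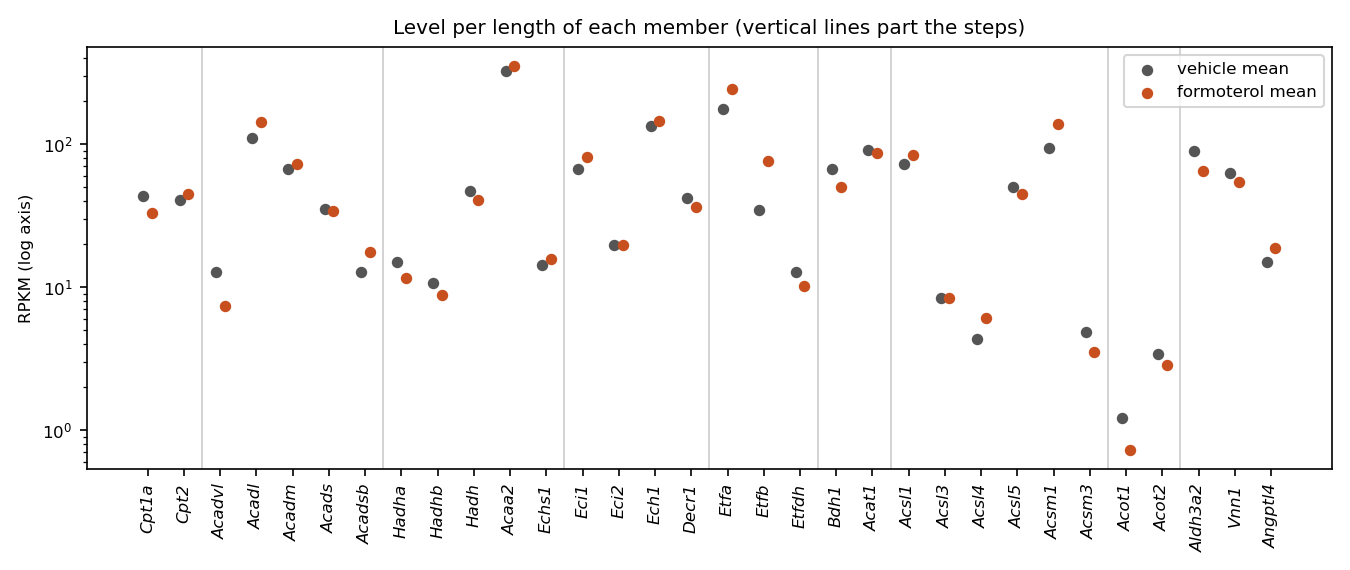
Mean RPKM (log axis) of each member in the vehicle and formoterol groups, with vertical lines between the steps of the pathway. Acaa2 is highest at 326 in vehicle and 349.97 in formoterol, and Acot1 lowest.

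Entry into the mitochondrion showed lower Cpt1a and no such difference in Cpt2. Cpt1a (ENSMUSG00000024900; chromosome 19, 3372334 to 3435733 on mm39) encodes the liver carnitine palmitoyltransferase of the outer membrane, the step that malonyl-CoA inhibits. Its normalized CPM were 259.8, 258, 189.9, 289 and 256 in formoterol libraries M46, M47, M48, M49 and M50, against 361, 304, 347 and 316 in vehicle libraries M56, M58, M59 and M60. All 5 treated livers lay below the lowest vehicle liver, with M48 lowest. The log2 fold change was −0.41 (SE 0.15, edgeR adjusted p = 0.24), and −0.30 with the length trend removed. Cpt2, the inner membrane partner that rebuilds the acyl-CoA, had 158, 98.5, 113, 79.8 and 88.8 CPM in the formoterol and 88.8, 93.5, 100.5 and 105 in the vehicle libraries. Both extremes of Cpt2 were treated livers, M46 at the top and M49 at the bottom (log2 fold change 0.15, SE 0.18).

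Among the dehydrogenases, values were lower for the enzyme of very long chains and higher for the branched-chain enzyme. Acadvl (ENSMUSG00000018574; chromosome 11, 69901009 to 69906237) encodes the membrane-bound very long-chain acyl-CoA dehydrogenase. It had 18.8, 17.3, 22, 25.3 and 16.2 CPM in formoterol libraries M46 to M50 and 40.5, 29.4, 33.5 and 33.4 in vehicle libraries M56, M58, M59 and M60. The groups did not overlap, and M49 was the treated liver nearest to the vehicle range. The log2 fold change was −0.78 (SE 0.16, edgeR adjusted p = 0.151, DESeq2 adjusted p = 0.00593), −0.89 without M49 (edgeR adjusted p = 0.00825) and −0.69 without vehicle library M56 (edgeR adjusted p = 0.477). Acadvl also passed edgeR with no filter on low counts, and its value was −0.82 with the length trend removed. The gene overlaps Dvl2 on the opposite strand, which had at most 269 counts in all libraries together beside 3984 of Acadvl.

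Acadl, the long-chain enzyme and the most abundant dehydrogenase of the list per length, had 417, 271, 310.2, 238 and 196 CPM in the formoterol and 213, 233, 221 and 217 in the vehicle libraries. Of the treated livers 4 lay above the vehicle range and M50 below it, and the spread of the treated group (SD 84.3) was far wider than that of the vehicle group (SD 8.8). Acadm, for medium chains, spanned 207 to 403 CPM in the formoterol and 221 to 284 in the vehicle libraries (log2 fold change 0.11, SE 0.20). Acads, for short chains, had means of 77.5 ± 13.8 and 80.1 ± 8.25 CPM (SD, n = 5 and 4). Acadsb (chromosome 7, 131012330 to 131050673), which oxidizes short branched chains from isoleucine breakdown, had 138, 134, 162, 93.1 and 107 CPM in the formoterol and 92, 83.8, 87.4 and 102 in the vehicle libraries. Only M49 of the treated livers was inside the vehicle range. Acadsb overlaps other genes with up to 2828 counts in all libraries together, beside 16145 of its own. Its log2 fold change was 0.47 (SE 0.17, edgeR adjusted p = 0.224), and 0.56 without M49 (edgeR adjusted p = 0.0467). Without M48 it was 0.36 (edgeR adjusted p = 0.45), and no omission of a library other than M49 gave an adjusted p under 0.05.

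**Figure D3:**
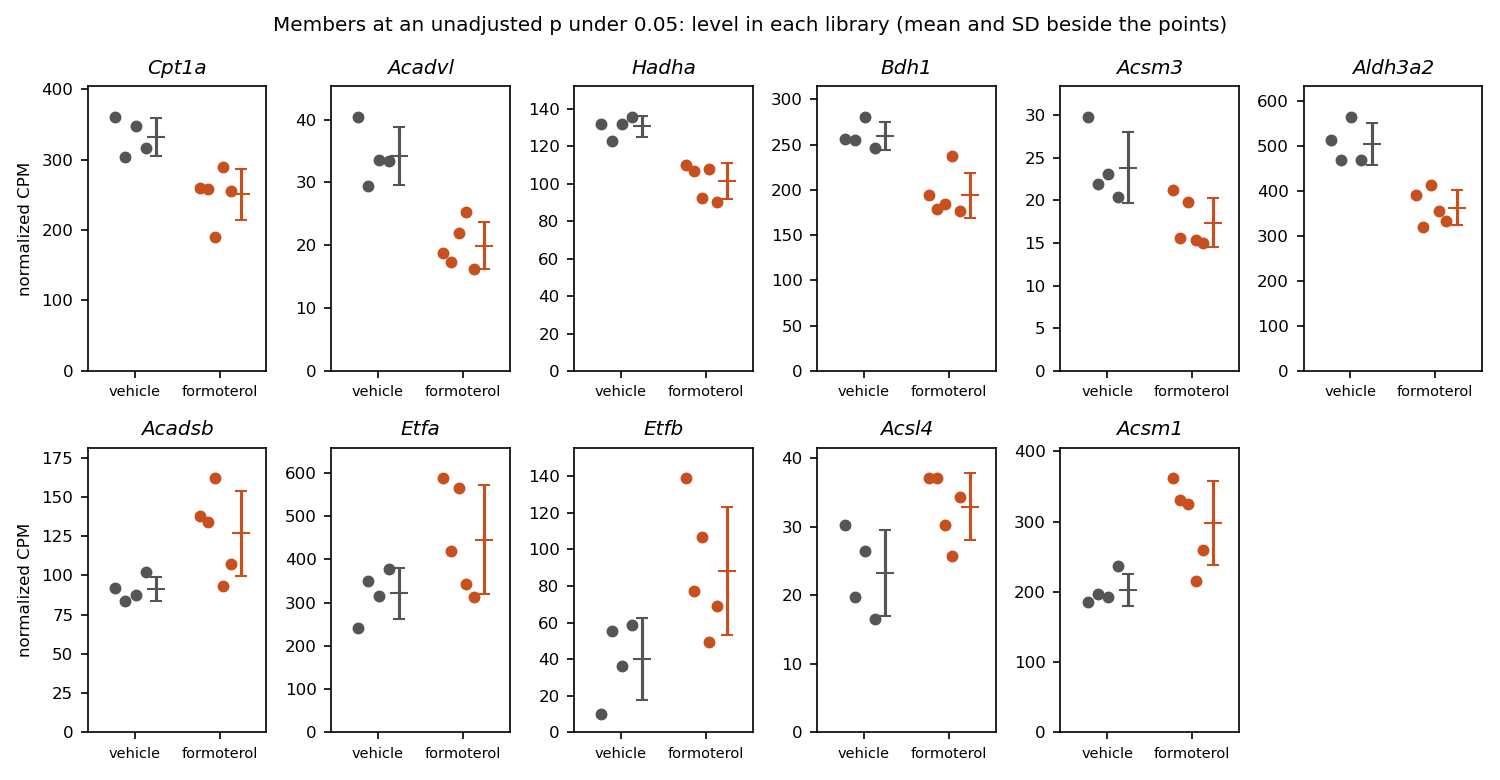
Normalized CPM of the 11 members at an unadjusted p under 0.05 in each library, on axes that start at 0, with the group mean and SD beside the points (4 vehicle, 5 formoterol). The first 6 panels are genes with lower values and the other 5 genes with higher values after formoterol. The vehicle library lowest in Etfb, at 10.01 CPM from 172 counts, is M56.

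Of the 5 genes of the later reactions of the spiral, Hadha alone had groups that did not overlap. Hadha and Hadhb encode the subunits of the trifunctional protein, which carries out hydration, oxidation and thiolysis of long chains. The genes stand head to head on chromosome 5 (Hadha from 30323302 to 30360160 on the minus strand, Hadhb from 30360246 to 30389591 on the plus strand), with 85 bp between them in the deposited annotation. Hadha had 110.3, 107, 92.2, 108 and 90.5 CPM in the formoterol and 132, 123, 132 and 136 in the vehicle libraries, without overlap (log2 fold change −0.37, SE 0.13, edgeR adjusted p = 0.223). That value was −0.24 with the length trend removed, and Hadha is listed at 8730 bp. Hadhb spanned 47.1 to 70.5 CPM in the formoterol and 62.1 to 76.9 in the vehicle libraries, and 3 of 5 treated livers lay below that range (log2 fold change −0.27, SE 0.14).
Acaa2, the thiolase that ends each turn for medium and long chains, had 611, 569.7, 565, 529 and 377 CPM in the formoterol and 440.4, 457, 545 and 536 in the vehicle libraries. M50 alone was below the vehicle range and 3 treated livers were above it (log2 fold change 0.10, SE 0.17; −0.06 with the length trend removed and −0.04 with libraries scaled by their totals). Hadh, the hydroxyacyl-CoA dehydrogenase of shorter chains, had means of 201 ± 51.4 and 232 ± 15.6 CPM. Echs1, the hydratase of short chains, had 130.4 ± 34 and 118 ± 14.9 CPM, and it overlaps Paox on the opposite strand.

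Enzymes that prepare unsaturated chains for the spiral were not separated between the groups. Ech1, a dienoyl-CoA isomerase and the most abundant of these 4 per length, had 443, 304, 354, 281 and 259 CPM in the formoterol and 245, 323, 319 and 338 in the vehicle libraries. Only M46 and M48 exceeded the vehicle range. Eci1, an enoyl-CoA isomerase of mitochondria, had 174 ± 36.6 and 141 ± 23.6 CPM (log2 fold change 0.30, SE 0.18). Eci2, its relative that also works in peroxisomes, had 109 ± 19.3 and 108 ± 6.55 CPM, and Decr1, the dienoyl-CoA reductase, 139.6 ± 21.6 and 162 ± 10.5.

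Electron transfer held the largest positive difference, in Etfb. Etfa and Etfb encode the subunits of the electron transfer flavoprotein, a heterodimer that takes electrons from all the acyl-CoA dehydrogenases. Etfb (ENSMUSG00000004610; chromosome 7, 43093507 to 43107224) had 139, 77, 107, 49.6 and 69 CPM in formoterol libraries M46 to M50 and 10.01, 55.3, 36.1 and 58.8 in vehicle libraries M56, M58, M59 and M60. All but M49 of the treated livers exceeded the vehicle range, and M56 stood far below every other library. The log2 fold change was 1.14 (SE 0.49, edgeR adjusted p = 0.325) and 0.82 without M56 (edgeR adjusted p = 0.514). Etfb overlaps the protein-coding gene Etfbl on the same strand, which had 6 counts, all of them in M56. How the counting treated reads shared by overlapping genes is not given in the sources used here, so the Etfb values are uncertain. Etfb is also the shortest member, at 1164 bp, and its value was 0.94 with the length trend removed.
Etfa (chromosome 9, 55361792 to 55419527) had 588, 419.8, 565, 342 and 314 CPM in the formoterol and 242, 350.3, 316 and 378 in the vehicle libraries. M46, M47 and M48 lay above the vehicle range while M49 and M50 lay within it (log2 fold change 0.47, SE 0.21, edgeR adjusted p = 0.321). Etfdh, the oxidoreductase that passes these electrons to ubiquinone, went the other way, at 75.7 ± 13.3 CPM after formoterol and 96.2 ± 15.1 after vehicle (log2 fold change −0.35, SE 0.17, edgeR adjusted p = 0.362).

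Of the ketone steps, Bdh1 was lower in every treated liver and Acat1 overlapped. Bdh1 (ENSMUSG00000046598; chromosome 16, 31241098 to 31277719) encodes the dehydrogenase that turns acetoacetate into beta-hydroxybutyrate. It had 194, 179, 184, 237 and 177 CPM in the formoterol and 256, 255, 281 and 246 in the vehicle libraries. Of the treated livers 4 clustered near the bottom and M49 came close to the vehicle range. The log2 fold change was −0.42 (SE 0.14, edgeR adjusted p = 0.211) and −0.50 without M49 (edgeR adjusted p = 0.0414). Without M46 it was −0.43 (edgeR adjusted p = 0.342), and no omission of a library other than M49 gave an adjusted p under 0.05. Acat1, the mitochondrial thiolase that makes or splits acetoacetyl-CoA, had 402, 283, 419.8, 276 and 240.2 CPM in the formoterol and 370.1, 354, 324 and 322 in the vehicle libraries. Treated livers lay on both sides of the narrow vehicle range (log2 fold change −0.08, SE 0.18).

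The acyl-CoA synthetases, which activate fatty acids, differed in both directions. Acsm1 (ENSMUSG00000033533; chromosome 7, 119206249 to 119261738), a medium-chain synthetase of the mitochondrial matrix and the most abundant of the 6 per length, had 362, 330.3, 325, 215 and 259 CPM in the formoterol and 186, 197, 192 and 237 in the vehicle libraries. M49 alone of the treated livers lay within the vehicle range. The log2 fold change was 0.55 (SE 0.17, edgeR adjusted p = 0.191), and 0.65 without M49 (edgeR adjusted p = 0.0288). Without M46 it was 0.47 (edgeR adjusted p = 0.363), and no omission of a library other than M49 gave an adjusted p under 0.05. A gene on the opposite strand overlaps Acsm1 and had up to 5708 counts in all libraries together, beside 36981 of Acsm1. Its neighbour and relative Acsm3 (chromosome 7, 119360146 to 119386736) had 21.2, 15.6, 19.8, 15.3 and 15 CPM in the formoterol and 29.8, 21.9, 23.1 and 20.4 in the vehicle libraries. M46 reached into the vehicle range of Acsm3 and the other 4 lay below it (log2 fold change −0.45, SE 0.17, edgeR adjusted p = 0.238). Acsm3 overlaps Eri2 on the opposite strand, which had 618 counts in all libraries together beside 3000 of Acsm3.
Acsl4 (chromosome X, 141100989 to 141173531), which prefers arachidonic acid, had 37.1, 37.1, 30.2, 25.8 and 34.4 CPM in the formoterol and 30.2, 19.8, 26.5 and 16.5 in the vehicle libraries. Its groups overlapped through M49 (log2 fold change 0.50, SE 0.19, edgeR adjusted p = 0.242). Acsl1, the main long-chain synthetase of liver, had 883 ± 173 CPM in the formoterol and 757 ± 53.1 in the vehicle livers, with 4 treated livers above the vehicle range and M49 below it at 579.7. Acsl3, a synthetase of lipid droplets and the endoplasmic reticulum, had 36.7 ± 7.89 and 36.6 ± 6.87 CPM. Acsl5, found on mitochondria and the endoplasmic reticulum, had 219 ± 58.7 and 243 ± 35.9 CPM. Acsl3 overlaps Utp14b on the same strand, with 978 counts in all libraries together beside 5504 of Acsl3. Acsl5 overlaps Zdhhc6 on the opposite strand, with 8541 counts beside 35013 of Acsl5.

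Acyl-CoA thioesterases, which release the free fatty acid again, were the least abundant members. Acot2, the mitochondrial enzyme, had 6.26, 4.18, 6.99, 9.74 and 4 CPM in the formoterol and 7.62, 6.9, 8.73 and 6.43 in the vehicle libraries. Its highest and lowest values were both from treated livers (log2 fold change −0.25, SE 0.26). Acot1, its cytosolic neighbour on chromosome 12, had 2.86 ± 1.37 and 4.73 ± 1.24 CPM (log2 fold change −0.73, SE 0.34, edgeR adjusted p = 0.346), from 31 to 104 counts per library. Acot1 and Acot2 are close paralogs, so reads could be split between them and both values are uncertain.

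The PPAR alpha targets outside the spiral did not share a direction. Aldh3a2 (ENSMUSG00000010025; chromosome 11, 61114243 to 61158290), which oxidizes fatty aldehydes in the endoplasmic reticulum, had 391, 319, 412, 356 and 333 CPM in the formoterol and 513, 469, 565 and 468 in the vehicle libraries. The groups did not overlap. The log2 fold change was −0.48 (SE 0.14, edgeR adjusted p = 0.184, DESeq2 adjusted p = 0.0355). Vnn1, a pantetheinase, had 131 ± 37.1 and 151 ± 10.6 CPM, and 4 treated livers lay below the vehicle range while M46 lay above it at 192. Angptl4, a secreted inhibitor of lipoprotein lipase, had 66.6 ± 28.5 and 53 ± 9.85 CPM, with M46 at 115, and its log2 fold change of 0.33 (SE 0.25) was 0.03 without M46.

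Ratios of paired members within a library need no scaling between libraries, but a library's length trend does not cancel in pairs of unlike length. Cpt1a is listed at 7642 bp and Cpt2 at 2391 bp, and the part of length in the ratios was not tested. In all, 8 ratios were set side by side with two-sided exact permutation tests (126 splits, smallest possible p = 0.00794). They were adjusted over the 8 by the Benjamini-Hochberg method. Hadha and Hadhb stayed in a like proportion, with a mean ratio of counts of 1.77 ± 0.23 in the formoterol and 1.88 ± 0.122 in the vehicle livers (difference in log2 ratio −0.09, exact permutation p = 0.405). The Acadvl to Acadm ratio was 0.0751 ± 0.025 and 0.133 ± 0.0344, lower in 4 of 5 treated livers than in any vehicle liver (difference −0.86, exact permutation p = 0.0238, 0.127 adjusted). Etfa to Etfb had a ratio of 5.28 ± 1.04 in the formoterol livers against 24.1, 6.33, 8.74 and 6.44 in vehicle libraries M56, M58, M59 and M60 (difference −0.89, exact permutation p = 0.0317, 0.127 adjusted). Without M56 that difference was −0.45 (exact permutation p = 0.0893). The Cpt1a to Cpt2 ratio was 2.49 ± 0.841 and 3.44 ± 0.454 (difference −0.52, exact permutation p = 0.111). With each library left out that difference was −0.68 to −0.39 (exact permutation p 0.0286 to 0.214). Eci1 to Eci2 differed by 0.29 (exact permutation p = 0.0635), and by 0.21 to 0.37 with each library left out (exact permutation p 0.0286 to 0.143). The p-values with a library left out were not adjusted over the 8 ratios. Bdh1 to Acat1, Acsl1 to Acsl5 and Acot1 to Acot2 differed by −0.31, 0.38 and −0.48 (exact permutation p from 0.214 to 0.484). No ratio passed after adjustment.

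**Figure D4:**
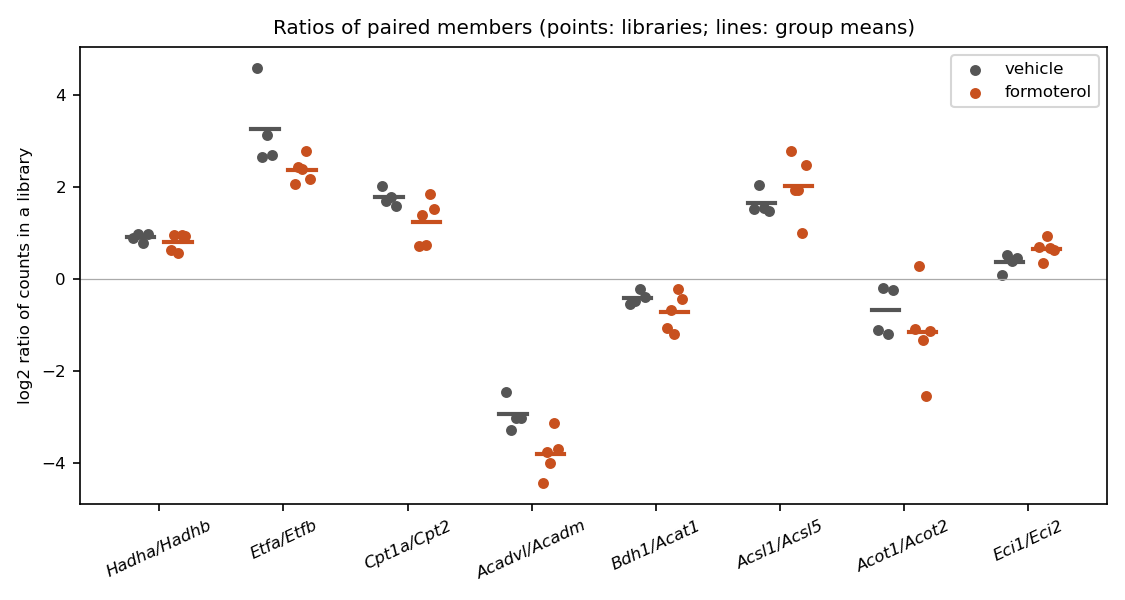
Log2 ratio of counts of 8 pairs of members in each library (points) with group means (lines), vehicle in grey and formoterol in orange. Hadha to Hadhb is tight in both groups, and the vehicle point at the top of Etfa to Etfb is M56, with a ratio of 24.1.

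The treated livers differed among themselves in most members. M46 was the highest formoterol library in 20 of 32 members and M50 the lowest in 20, and over all 9 libraries M46 was highest in 15 and M50 lowest in 16. Median deviations of the members from their mean over the libraries were 0.28 for M46, −0.04 for M47, 0.14 for M48, −0.15 for M49 and −0.33 for M50 on the log2 CPM scale. Vehicle libraries stayed between 0.01 and 0.1. The 32 members together made up 0.514% to 0.737% of normalized counts in the formoterol and 0.56% to 0.621% in the vehicle libraries.
Among the 6 members with lower values the order was another. M49 was the highest treated library in 3 of these 6, M46 in 2 and M48 in 1. Counts from the mitochondrial genome made up 16.4% of library M46 and 38.6% of M50, the lowest and highest shares of the 9 libraries. Scaled by the total of all other genes, the median deviation was −0.01 for M46 and −0.33 for M50, and 0.14 to 0.25 in the vehicle libraries. Over all genes tested, the Spearman correlation of a gene's deviation with its length was −0.22 in M46, −0.27 in M48 and 0.26 in M56. The part of the mitochondrial share or of length in the members' spread was not tested.

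**Figure D5:**
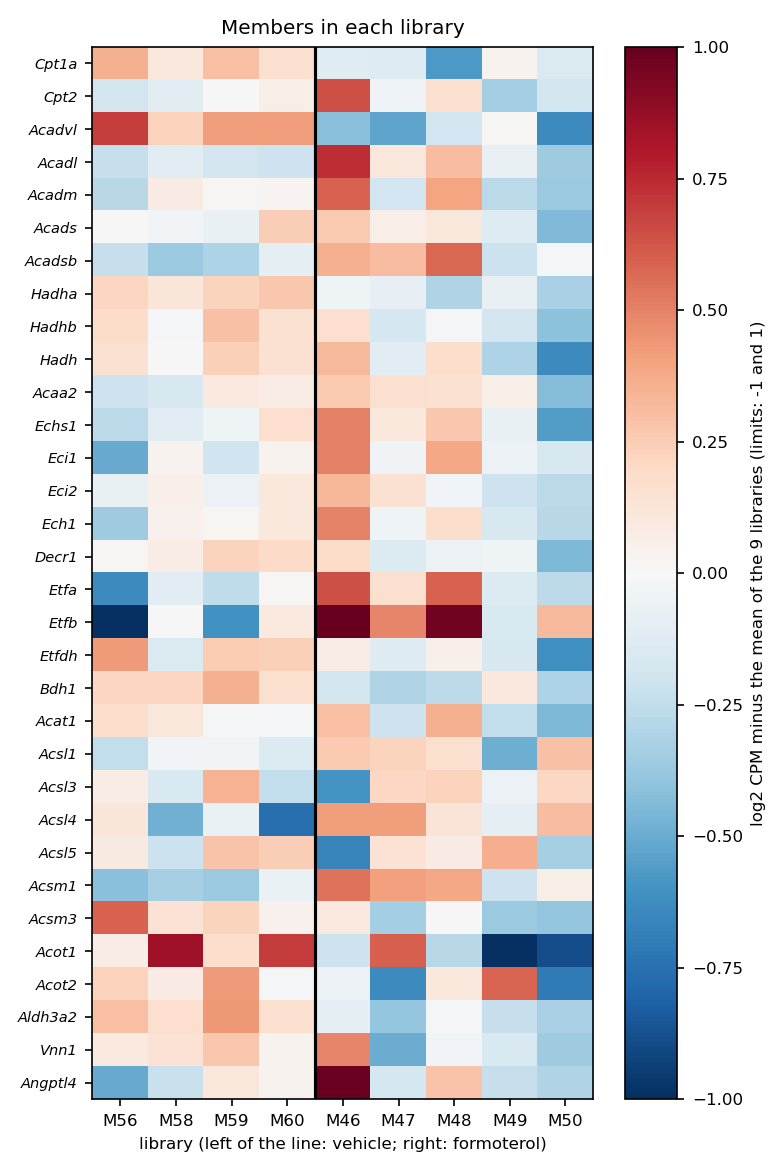
Log2 CPM of each member (rows) minus its mean over the 9 libraries (columns, vehicle left and formoterol right of the line), with colours that end at −1 and 1, so values beyond are drawn at the limit. Library M46 is above the mean (red) in most rows and M50 below it (blue) in most, while Cpt1a, Acadvl, Hadha, Bdh1 and Aldh3a2 are higher in every vehicle than in every formoterol library.

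Other genes of the pathway, taken from 5 lists with 46 genes tested, gave mixed counts at an unadjusted edgeR p under 0.05. Over all genes tested, 5.53% were lower and 9.03% higher at that p. None of the 46 passed edgeR after adjustment over all genes (0% of genes tested), and limma-voom called 0 (0% of all genes). DESeq2 called Acot4 (adjusted p = 0.0423, lower), where 0.826% of genes with an adjusted p were called lower and 1.96% higher. Limma-voom with quality weights called 7 lower (Crat, Slc16a1, Slc16a6, Acot4, Acot9, Pdk4 and Fgf21) and 3 higher (Acad8, Ivd and Esrra), with adjusted p from 0.00435 to 0.0468. It called 4.46% of all genes lower and 6.07% higher. Of 6 genes of the carnitine shuttle 4 were tested, and 1 was lower and 0 higher. That gene was Crat, the carnitine acetyltransferase, at 32 ± 12.1 CPM after formoterol and 53.4 ± 5.6 after vehicle (log2 fold change −0.74, SE 0.22). Slc22a5, the carnitine importer of the cell membrane, had 21.4 ± 4.08 and 25.9 ± 4.54 CPM. Slc25a20, the carrier that brings acylcarnitines in, had 123 ± 24.6 and 118 ± 9.59 CPM. Among 8 genes related to the acyl-CoA dehydrogenases, 2 were higher and 0 lower. Both act in branched-chain amino acid breakdown: Acad8 had 44.5 ± 11.2 and 32.6 ± 3.04 CPM and Ivd 138 ± 22.1 and 105 ± 20.04.
Among 7 other ketone genes 1 was lower and 0 higher. It was Slc16a1, a transporter of ketone bodies and lactate, at 24.2 ± 7.35 and 34.7 ± 8.34 CPM. Of 16 other synthetases and thioesterases 12 were tested, with 1 lower and 0 higher. Acot4, a peroxisomal thioesterase, had 67.8 ± 11.6 and 96.8 ± 6.5 CPM, without overlap between the groups (log2 fold change −0.51, SE 0.15).
Of 15 regulators and related genes 2 were lower and 1 was higher. Esrra, an orphan nuclear receptor that drives oxidative genes, had 23.1 ± 0.633 and 16.1 ± 3.73 CPM (log2 fold change 0.52, SE 0.17), with every treated liver above the vehicle range. Pdk4, a kinase that shuts pyruvate out of oxidation, had 5.63 ± 2.51 and 11.6 ± 4.04 CPM (log2 fold change −1.04, SE 0.33). Fgf21, a hormone made by liver in fasting and stress, had 3.08 ± 2.67 and 8.18 ± 0.562 CPM (log2 fold change −1.38, SE 0.50). Its groups barely missed overlapping, at 7.54 CPM in formoterol library M49 and 7.56 in vehicle library M56, and M46 had 5 counts. The receptor gene Ppara, picked out after its values were seen, had 24.5 ± 7.03 and 25.3 ± 3.09 CPM (log2 fold change −0.05, SE 0.20).

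Some members are also made by cells other than hepatocytes, Angptl4 and Acsl1 by fat cells among them. The 6 adipocyte markers summed to 31.2 to 117 CPM in the formoterol and 13.3 to 22.3 in the vehicle libraries, without overlap. Cfd made up 6.66 to 107 CPM of the sum and Adrb3 2.68 to 10.05 CPM. Plin1, a defining marker, had 0 counts in every library, and Adipoq 0 in 7 of 9 libraries with a maximum of 0.389 CPM. Markers of Kupffer cells and macrophages summed to 37.5 to 78.4 and 58 to 100.1 CPM, those of erythroid cells to 269.8 to 522 and 169 to 556, and those of skeletal muscle to at most 0.164 CPM in any library. The part of other cell types in the members' values was not tested.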

How the data were processed

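Bulk liver RNA was measured in 4 vehicle and 5 formoterol libraries. The authors deposited raw read counts per Ensembl gene, 1 column per library, with coordinates and a length in bp. HISAT2 2.0.5, the build mm39 and DESeq2 are named in the submitters' processing notes. How reads were counted, with or without strand, and on which annotation is not given in the sources used here, so genes that overlap may share reads. Totals ranged from 12336665 to 20339665 counts, and every member had at least 31 counts in each library.

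Of 56748 genes, 13042 passed edgeR's filterByExpr (minimum count 10, about 0.6 CPM, minimum total 15), all 32 members included. They were tested with edgeR 4.0.16 in R 4.3.3 (TMM factors, robust quasi-likelihood test, Benjamini-Hochberg adjustment over all genes tested, threshold 0.05). CPM are normalized with TMM factors, and means are given ± SD (n = 5 formoterol, 4 vehicle). Ratios were tested as log2 ratios of counts with a pseudocount of 0.5. Members named with values in every library are those at an unadjusted p under 0.05, those whose groups do not overlap, and the most abundant per length in each step. Of the other lists at most 4 genes per list were named, from those of smallest p. Ppara is an exception to that rule, picked out after its values were seen. Some genes of these lists are not reported here. The scripts were tested on simulated data. The alternatives were other scalings and filters, DESeq2 1.42.0, limma-voom (limma 3.58.1) with and without sample quality weights, removal of the gene length trend, omission of the mitochondrial genome and omission of each library. The members, the lists and the tests were chosen with earlier results of these data known. Upstream sequences are from RefSeq (GRCm38.p6).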

Additional observations from a re-analysis of the deposited data

Results flagged for a closer look

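In 80 groups of values (32 members and 8 ratios in 2 treatment groups) 5 held a library set apart from the others of its group by Dixon's criterion, and chance flags about 1 in 20. Formoterol library M49 had 237 CPM of Bdh1, above the other treated livers, and 579.7 CPM of Acsl1, below them. Vehicle library M56 had an Etfa to Etfb ratio of 24.1, and vehicle library M58 an Acsl1 to Acsl5 ratio of 4.12. Formoterol library M47 had an Acot1 to Acot2 ratio of 1.22, for 2 paralogs with few counts.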

How the results depend on the processing

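No paired analysis was possible because the groups are different mice, 5 given formoterol and 4 vehicle, and no pairing is stated. The columns also carry codes other than the labels' replicate numbers, so those numbers could not be matched to libraries. The count of genes called by edgeR, 0 with all libraries, was 263 with no filter on low counts, 314 by DESeq2, 1374 by limma-voom with sample quality weights, and 0 to 702 with each library left out (702 without M49, 4 without M60). Members lower at an unadjusted p under 0.05 numbered 11 with quality weights and 6 to 9 with each library left out. Members higher numbered 1 with library-total scaling, 3 with the length trend removed and 2 to 7 with each library left out (2 without M47, 3 without any 1 of M46, M48, M58 or M59). For these alternatives the share of all genes at that unadjusted p was not counted. The members' median was −0.18 with library-total scaling and −0.08 to 0.02 with each library left out. Ratio differences with each library left out were −1.09 to −0.45 for Etfa to Etfb (exact permutation p 0.0286 to 0.0893) and −1.02 to −0.69 for Acadvl to Acadm (p 0.0286 to 0.0714). They were −0.68 to −0.39 for Cpt1a to Cpt2 (p 0.0286 to 0.214) and 0.21 to 0.37 for Eci1 to Eci2 (p 0.0286 to 0.143), by the same test. Fewer libraries raise the smallest p possible.

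Members near 0 turned sign. With library-total scaling values were −0.02 for Cpt2, −0.04 for Acadm and Acaa2, −0.0077 for Echs1, −0.05 for Ech1 and −0.15 for Eci2 and Acsl3. Eci2 and Acsl3 were −0.04 with upper-quartile factors, −0.0041 and −0.0044 with a minimum count of 50, −0.0056 and −0.0074 by limma-voom and −0.0015 and −0.0071 without the mitochondrial genome, and Acsl3 −0.002 with no filter. Acadm was −0.03 and Acads 0.01 with quality weights, and Acaa2 −0.06 with the length trend removed. With each library left out the ranges were −0.04 to 0.23 for Cpt2, −0.05 to 0.20 for Acadm, −0.13 to 0.04 for Acads, −0.09 to 0.06 for Eci2, −0.04 to 0.17 for Ech1, −0.20 to 0.004 for Acat1 and −0.08 to 0.13 for Acsl3. The cause was not tested. The direction of the other 23 members held under the 19 alternatives run for them. Depth limits Acot1 most, with 31 to 104 counts per library.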
